A study of Mus musculus with 10 samples.

Results

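The genes described here encode the proteins of the cytosolic ribosome. They were taken as every probe set whose single platform symbol starts with Rpl or Rps and a digit, or is Rplp0, Rplp1, Rplp2 or Rpsa, without the Rps6k kinases and without pseudogene symbols marked -ps. For each symbol the probe set of highest mean over the 10 arrays was kept. This gave 63 genes out of 19938 with a row, drawn from 219 probe sets. Of the 63, 21 encode small subunit proteins, 30 large subunit proteins and 3 the proteins of the P stalk, together called core genes (54) below. The remaining 9 are paralogs or genes that only share the symbol pattern (Rpl3l, Rpl7l1, Rpl10l, Rpl32l, Rpl39l, Rps4l, Rps27l, Rps19bp1 and Rps23rg1). A further 239 probe sets list a ribosomal protein symbol beside other genes and were not used, and 20 symbols, such as Rpl11, Rpl3 and Rps27, had only such shared probe sets.

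The arrays measured B220+ cells sorted from pre-B colonies, which are B cell precursors grown from bone marrow in methylcellulose for 7 days. The colonies came from 5 mice with 1 disrupted Hspa9 allele (Hspa9+/-, called heterozygous) and from 5 littermates with both alleles intact (Hspa9+/+, called wild type). Every mouse gave a separate culture and 1 Mouse Gene 1.0 ST array, and all cultures shared the same medium. The sources used here name no strain, sex or age and no method of disruption. Values are log2 units of RMA (robust multi-array average), and every difference is heterozygous minus wild type with n = 5 arrays per genotype.

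Ribosomal proteins assemble with ribosomal RNA in the nucleolus into a small subunit, which decodes the mRNA, and a large subunit, which joins amino acids. Their mRNAs begin with a run of pyrimidines, the terminal oligopyrimidine or TOP motif, through which the kinase mTOR and the protein LARP1 set their translation together. In humans, loss of 1 copy of some ribosomal protein genes, though not of every one, causes Diamond-Blackfan anaemia. RPS14 and HSPA9 both lie in the stretch of chromosome 5 that can be lost in myelodysplastic syndromes. Mortalin, the product of Hspa9, is a chaperone of the mitochondrial matrix and no part of the cytosolic ribosome.

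Promoters of 51 of the 63 genes were matched in the RefSeq promoter table (build GRCm38.p6, 250 bases before to 50 after the annotated start). The short pyrimidine-rich run CTTTC on the sense strand, searched from 50 bases before to 50 after the start, was found in 20 of the 51 (39.2%), against 11.2% of the 17492 protein-coding promoters. The ETS-type motif CCGGAAG or its reverse complement CTTCCGG, the kind of site bound by GABP, was found anywhere in the 300-base window in 18 of 51 (35.3%), against 11.9% of all. The YY1-type core AAGATGG or its reverse complement CCATCTT was in 4 of 51 (7.84%), against 6.37% of all. Matches of different motifs may overlap in a window. Both of the first motifs were present in 9 members and neither in 22. A match is letters in a window and not a shown binding site, and annotated starts can lie upstream of the start in use. The 60-base stretches below, 45 bases before to 15 after the annotated start, belong to Rplp2, Rpl38 and Rps7, among the 6 of smallest limma p in their direction, to Rpl13, chosen after its values were seen, and to Rpl39l, which varied most between arrays. Capitals mark the motifs above.

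Rplp2, chr7:141447606-141447665, plus strand: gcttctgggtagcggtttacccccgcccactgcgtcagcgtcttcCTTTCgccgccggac
Rpl13, chr8:123102305-123102364, plus strand: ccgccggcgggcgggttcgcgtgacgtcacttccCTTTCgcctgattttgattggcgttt
Rpl38, chr11:114668535-114668594, plus strand: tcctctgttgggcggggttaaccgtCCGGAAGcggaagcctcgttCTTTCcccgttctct
Rps7, chr12:28635939-28635998, minus strand: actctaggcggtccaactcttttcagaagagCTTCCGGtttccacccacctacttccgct
Rpl39l, chr16:10170183-10170242, plus strand: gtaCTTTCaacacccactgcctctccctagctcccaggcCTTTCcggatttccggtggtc

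The core genes gave some of the brightest and least variable signals on these arrays. Of the 63 members, 50 lay among the top 5% of the 14953 genes tested and 44 among the top 1% by mean signal. The SD over all 10 arrays had a median of 0.0729 for the core genes, against 0.237 for all genes. Brightness goes with part of this: for the 42 members with a mean of 12 or more the median SD was 0.0658, and for the 53 other genes as bright it was 0.126. Signal at the top of the range can be compressed, which was not measured here. Brightness also depends on the probes, so no order of expression between genes is drawn from it. Each row is also the probe set of highest mean, which raises the means of genes with many probe sets. The 63 members had 219 probe sets, and 39 members had several, against 21789 probe sets for all 19938 genes. The rank by brightness is thus partly set by the choice of rows, and its part in the SD was not tested.

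**Figure D1:**
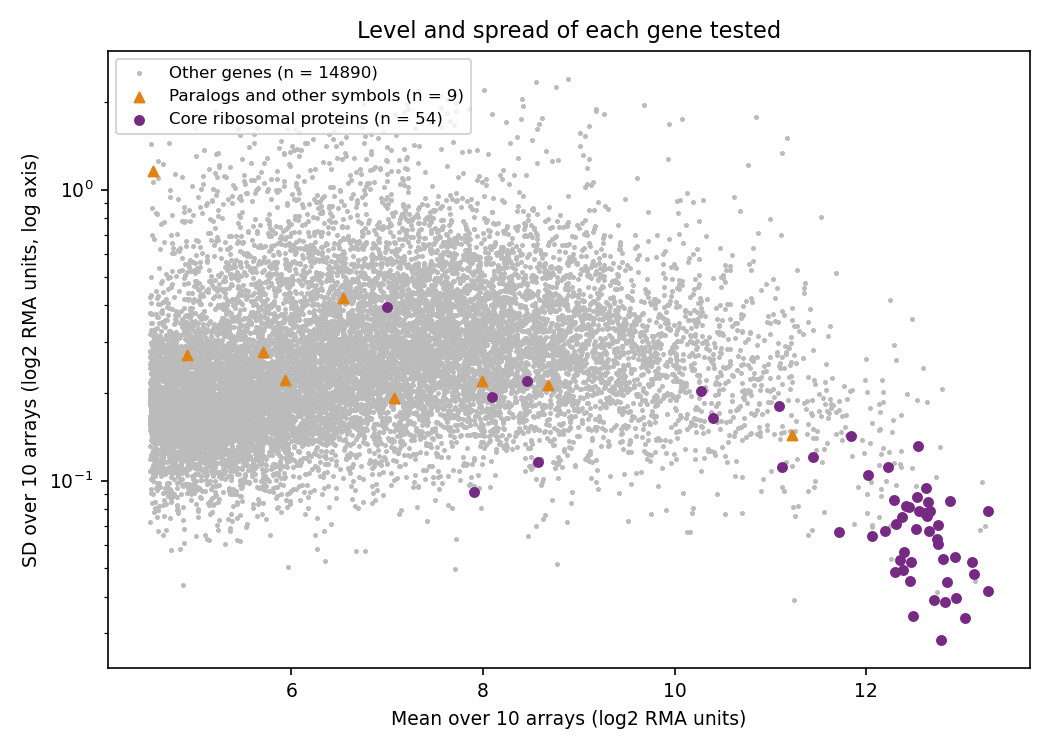
Mean signal over the 10 arrays (x axis, log2 RMA units) against the SD over the arrays (y axis, log2 RMA units on a log axis) for all other genes tested (grey), 54 core ribosomal protein genes (purple) and 9 paralogs or other symbols (orange). Most core genes sit at the lower right, bright and with little spread, and Rpl39l is the triangle at the upper left.

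Hspa9, read as a check of the labels, was at 9.52, 8.92, 9.30, 9.21 and 8.97 in heterozygous arrays, against 9.49, 9.57, 10.36, 10.17 and 9.99 in wild type arrays. Only heterozygous 1 reached the wild type range, and the ratio of the means was 60.3% (95% interval 45.4 to 80.0%, exact permutation p = 0.0159). Over all genes tested by limma, 0 passed the adjusted threshold of 0.05, Hspa9 included (adjusted p = 0.345), and 1650 (11.0%) had an unadjusted p under 0.05. The B lineage marker list ran from 10.25 to 10.61 in heterozygous arrays and from 10.53 to 10.72 in wild type arrays, so B lineage RNA was present in all 10. Of its 13 genes tested (14 listed) 3 were lower and 1 higher at an unadjusted p under 0.05 in limma (30.8%). The list mean was 10.42 ± 0.167 in heterozygous arrays and 10.67 ± 0.0791 in wild type arrays (SD, n = 5 each). Ptprc, which encodes the sort marker B220, was at -0.68 (adjusted p = 0.490). Monocyte and macrophage markers (16 genes measured) differed widely between arrays, and 2 arrays stood apart with list means of 9.67 in heterozygous 2 and 9.07 in wild type 1, against 5.69 to 7.56 in the other 8. Of these 16 genes 15 had a difference above 0 (median 0.88), as did 11 of 11 neutrophil markers (median 0.35), with 0 of either list at an unadjusted p under 0.05 in limma. Of 9 listed markers of T and natural killer cells only 5 were among the genes tested. All 5 were higher in heterozygous arrays at an unadjusted p under 0.05 in limma. Of 6 markers of plasmacytoid dendritic cells 4 were so, against 6.79% of all genes. The list mean of the first ran from 6.26 to 6.51 in heterozygous arrays and from 5.28 to 6.06 in wild type arrays, and that of the second from 6.67 to 8.40 in heterozygous arrays and from 5.94 to 7.10 in wild type arrays. The part of these cells in the comparisons below was not tested.

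In the comparison of genotypes no ribosomal protein gene was called. Of 63 members 0 passed the adjusted threshold and 0 reached an unadjusted p under 0.05 in limma, against 11.0% of all genes (6.79% higher and 4.25% lower). The median difference was 0.00068 over the 63 members and -0.00472 over the core genes, against 0.058 over all genes. Differences were above 0 for 32 members and below 0 for 31. By class the median was -0.00708 for the small subunit (9 above 0, 12 below), -0.00472 for the large subunit (14 above, 16 below), 0.11 for the 3 P stalk genes and 0.12 for the 9 paralogs and other symbols. In bulk RNA, fewer cells of a type and less RNA per cell cannot be told apart.

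The intervals were narrow for most core genes. The 95% interval lay within a 1.2-fold change in either direction for 40 of 54 core genes, and 46 had a difference smaller than 0.1 in size. The other 14 allowed a larger change, and among them Rpl12 had the lowest lower bound at -0.69 and Rpl34 the highest upper bound at 0.44. These bounds hold for RMA values, which are normalized to a shared distribution. Since 42 of the 95 rows with a mean of 12 or more are ribosomal protein genes, a common shift of the family would be partly removed by that normalization.

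**Figure D2:**
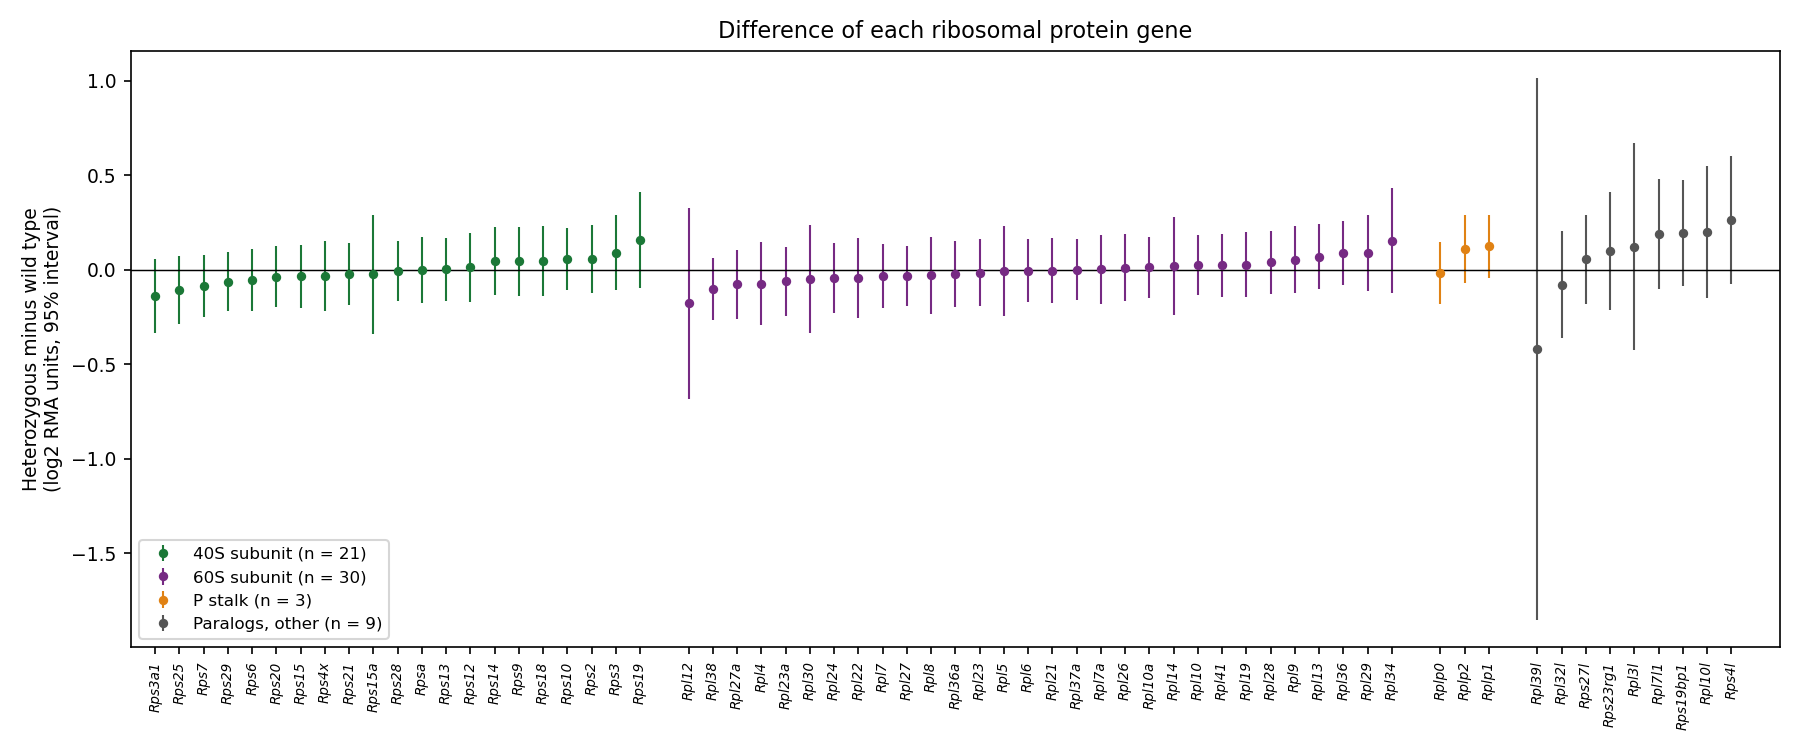
Difference of heterozygous minus wild type for each of the 63 genes (points, log2 RMA units) with limma's 95% interval (bars), sorted within small subunit (green), large subunit (purple), P stalk (orange) and paralogs or other symbols (grey). Every interval includes 0, and that of Rpl39l is the widest.

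The limma test shares variance between genes, and for these genes it gave larger errors than their own replicates. The limma standard error (SE) was above the gene's own SE in 56 of 63 members, with medians of 0.0817 and 0.0487. The genes were therefore also tested one by one with a two-sided exact permutation test, added after the data had been seen. It gave an unadjusted p under 0.05 for 5 members, 2 higher and 3 lower, or 7.94% against 11.0% of all genes. A fit with each gene's own variance also gave 5, with Rpl36 (0.088) in place of Rpl13 (11.2% of all genes). Neither test left a gene past the threshold after adjustment over all genes (smallest adjusted permutation p = 0.348). An exact permutation p cannot lie below 0.00794 here, so very many genes would have to share that value for any to pass. The adjusted permutation result is therefore no evidence about these genes. By direction, exact permutation called 3.17% of members higher, against 7.63% of all genes, and 4.76% lower, against 3.42% of all genes. The 4.76% stands for 3 genes.

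The P stalk is the flexible arm of the large subunit that recruits the elongation factors, built from Rplp0 and pairs of Rplp1 and Rplp2. Rplp1 was at 13.33, 13.32, 13.30, 13.36 and 13.36 in heterozygous arrays, against 13.21, 13.26, 13.22, 13.11 and 13.25 in wild type arrays. All heterozygous values lay above all wild type values, the single member where the groups did not overlap (1.47% of all genes were so, higher). The difference was 0.12 (SE 0.0749, adjusted p = 0.535), or 108.9% of wild type (95% interval 97.1 to 122.1%). The exact permutation p was 0.00794, the smallest that 5 against 5 arrays can give. Any gene without overlap has this p, so it adds nothing to the non-overlap. A second probe set of Rplp1 was at 0.0305, and cyclic loess normalization put the first at 0.0513.

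Rplp2 was at 7.96, 7.80, 7.98, 7.98 and 8.06 in heterozygous arrays, against 7.82, 7.81, 7.87, 7.92 and 7.81 in wild type arrays. Heterozygous 2 was the lowest of all 10 arrays and the other 4 heterozygous arrays lay above every wild type array. The difference was 0.11 (SE 0.0814, adjusted p = 0.582). Rplp0, the stalk's anchor on the ribosome, ran from 12.75 to 12.89 in heterozygous arrays and from 12.82 to 12.92 in wild type arrays, with a difference of -0.017 (adjusted p = 0.932). Rpl12, which sits at the base of the stalk, had the largest SD of the core genes. It was at 7.06, 6.03, 7.05, 7.36 and 7.03 in heterozygous arrays, against 6.66, 7.22, 7.18, 7.00 and 7.36 in wild type arrays. Heterozygous 2 and wild type 1 were its lowest arrays, and without heterozygous 2 its difference was 0.0406 in place of -0.18.

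Among small subunit genes, Rps3a1, Rps25, Rps7 and Rps29 had the smallest p on the lower side and Rps19 on the higher side. Rps7, whose protein can bind Mdm2 when ribosome assembly fails, was at 12.10, 12.03, 11.97, 11.97 and 12.01 in heterozygous arrays, against 12.08, 12.17, 12.13, 12.08 and 12.06 in wild type arrays. The groups overlapped through heterozygous 1, and the difference was -0.087 (SE 0.0751, adjusted p = 0.626, exact permutation p = 0.0317). Its 3 probe sets ran from -0.12 to -0.052. Probe sets of 1 gene read the same RNA on the same arrays, so their agreement, here and below, is no independent support. Rps29, a small zinc-binding protein of the subunit's head, was at 13.25, 13.24, 13.23, 13.28 and 13.20 in heterozygous arrays, against 13.26, 13.31, 13.30, 13.32 and 13.33 in wild type arrays. Here heterozygous 4 lay just above wild type 1, and the difference was -0.063 (SE 0.0719, adjusted p = 0.710, exact permutation p = 0.0159), with 4 probe sets between -0.066 and -0.056.

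Rps3a1 was at 11.43, 11.40, 11.37, 11.35 and 11.28 in heterozygous arrays, against 11.31, 11.55, 11.59, 11.64 and 11.43 in wild type arrays. Wild type 1 and, narrowly, wild type 5 lay within the heterozygous range, and the difference was -0.14 (SE 0.0894, adjusted p = 0.540). Rps25, which is needed for initiation at some viral RNAs, was at 12.57, 12.56, 12.58, 12.66 and 12.46 in heterozygous arrays, against 12.58, 12.73, 12.75, 12.73 and 12.57 in wild type arrays, with overlap through wild type 1 and wild type 5. Its difference was -0.11 (SE 0.0828, adjusted p = 0.593), and all 6 of its probe sets were negative, from -0.12 to -0.10.

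Rps19, the gene most often mutated in Diamond-Blackfan anaemia, was at 11.02, 11.12, 11.11, 11.17 and 11.41 in heterozygous arrays, against 10.98, 11.12, 10.75, 10.95 and 11.26 in wild type arrays. The groups overlapped and the difference was 0.16 (SE 0.115, adjusted p = 0.576). Rps14, whose loss in human del(5q) disease impairs red cell formation, was at 12.66, 12.64, 12.58, 12.68 and 12.75 in heterozygous arrays, against 12.71, 12.69, 12.50, 12.57 and 12.61 in wild type arrays. The values were interleaved, with a difference of 0.044 (SE 0.0815, adjusted p = 0.820), or 103.1% of wild type (95% interval 91.1 to 116.8%). Cyclic loess normalization put it at -0.0195.

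Other small subunit genes were nearer to 0. Rps6, the substrate of the S6 kinases, was at -0.054 (adjusted p = 0.756), and all 8 of its probe sets were negative, from -0.12 to -0.054. Rps4x, encoded on the X chromosome, was at -0.032 (adjusted p = 0.876), Rpsa, also known as the laminin receptor, at -0.0009 (adjusted p = 0.997) and Rps28, a small protein of the subunit, at -0.0071 (adjusted p = 0.970). Rps28 was among the 3 members of smallest SD (0.0337), with Rpl10 (0.0284) and Rpl27 (0.0343). Rps28 ran from 13.01 to 13.06 in heterozygous arrays and from 13.01 to 13.11 in wild type arrays.

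Among large subunit genes the smallest p belonged to Rpl38, which in the mouse controls translation of Hox mRNAs. It was at 12.46, 12.51, 12.44, 12.48 and 12.47 in heterozygous arrays, against 12.56, 12.62, 12.59, 12.62 and 12.49 in wild type arrays. Only wild type 5 lay inside the heterozygous range. The difference was -0.10 (SE 0.0743, adjusted p = 0.572, exact permutation p = 0.0159), or 93.1% of wild type (95% interval 83.2 to 104.3%), and its 4 probe sets ran from -0.11 to -0.086. Rpl27a, of the same subunit, was at -0.077 (adjusted p = 0.694), but its 9 probe sets ran from -0.077 to 0.045. Rpl13 was at 12.69, 12.65, 12.70, 12.73 and 12.69 in heterozygous arrays, against 12.49, 12.68, 12.67, 12.66 and 12.62 in wild type arrays. The groups overlapped through heterozygous 2, and the difference was 0.070 (adjusted p = 0.702, exact permutation p = 0.0476), with 9 probe sets from 0.070 to 0.10. Rpl13 was chosen after its values were seen.

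Rpl5, which with Rpl11 and the small ribosomal RNA of the large subunit binds Mdm2 and so stabilises p53, was at 11.98, 11.72, 11.84, 11.81 and 11.83 in heterozygous arrays, against 11.53, 11.83, 11.97, 12.02 and 11.87 in wild type arrays. The groups overlapped with wild type 1 lowest, and the difference was -0.0074 (adjusted p = 0.979). Rpl22, needed for T cell development in mice, was at 8.48, 8.64, 8.65, 8.51 and 8.49 in heterozygous arrays, against 8.38, 8.75, 8.51, 8.65 and 8.68 in wild type arrays, also with overlap (-0.043, adjusted p = 0.853). Rpl10, a late-joining protein that completes the subunit, was at 0.023 (adjusted p = 0.896), Rpl27 at -0.033 (adjusted p = 0.851) and Rpl36a at -0.023 (adjusted p = 0.912).

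**Figure D3:**
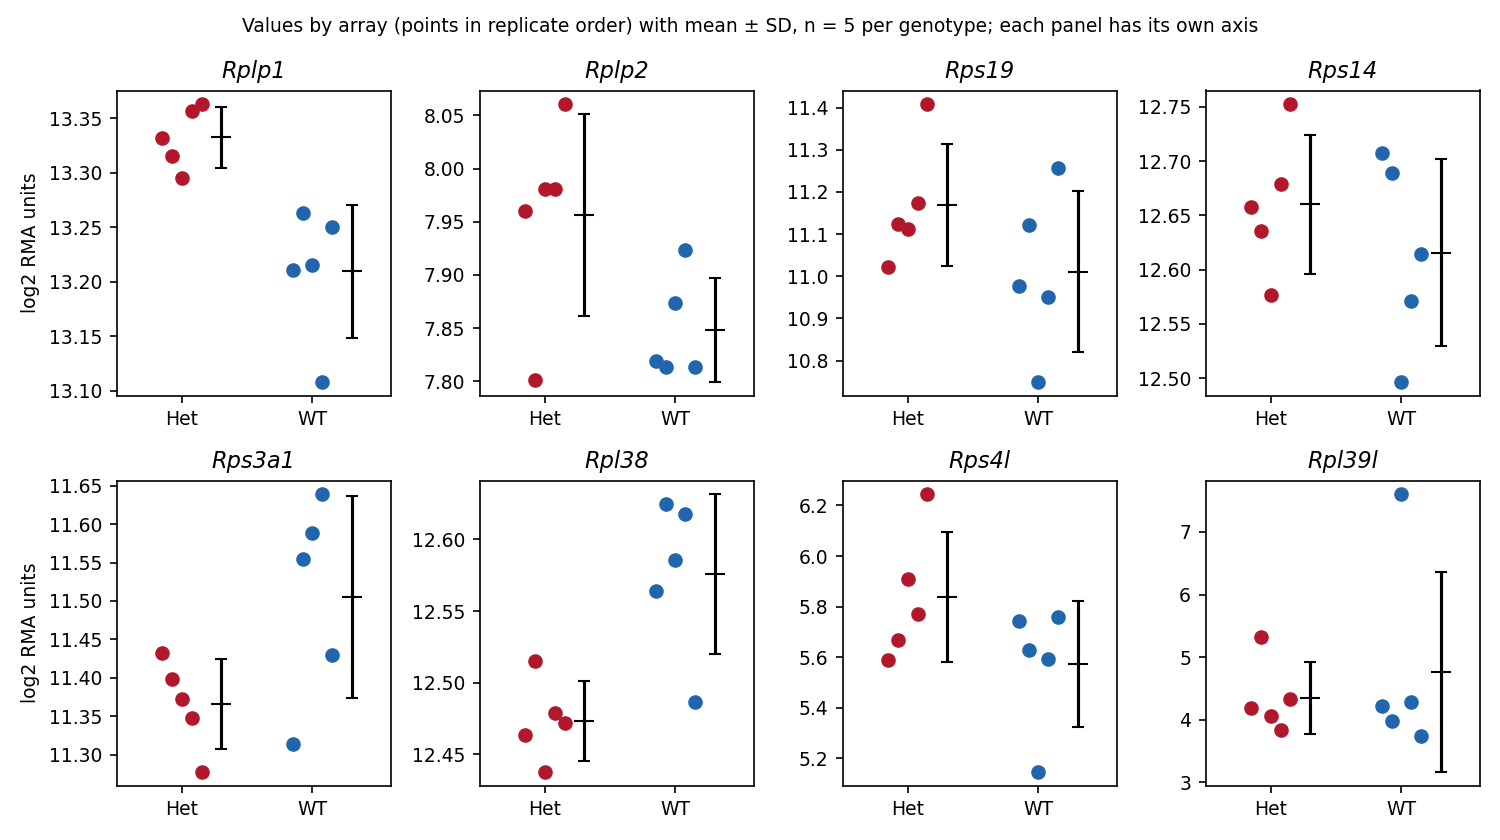
Values of 8 members by array (points, log2 RMA units, heterozygous in red and wild type in blue) with mean and SD (bars, n = 5 per genotype). Each panel has its own y axis, so panel heights do not compare. Rplp1 is the panel where the genotypes do not overlap, and in Rpl39l wild type 3 at 7.60 stands far above the other arrays.

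The 9 paralogs and other symbols had 7 differences above 0 and 2 below, with 0 past either threshold in limma. All 63 members passed the filter on dim rows. Rps4l, a paralog of Rps4x, had the smallest limma p of all members. It was at 5.59, 5.67, 5.91, 5.77 and 6.24 in heterozygous arrays, against 5.74, 5.63, 5.15, 5.59 and 5.76 in wild type arrays. The groups overlapped and the difference was 0.26 (SE 0.154, adjusted p = 0.522), while its second probe set was at -0.039. Rps19bp1, which encodes a regulator of the deacetylase SIRT1 that binds the Rps19 protein, was at 0.19 (SE 0.128, adjusted p = 0.549), and Rpl7l1 was at 0.19 (SE 0.133, adjusted p = 0.566). Rps27l, a p53 target gene, was at 11.32, 11.22, 10.98, 11.37 and 11.39 in heterozygous arrays, against 11.01, 11.36, 11.20, 11.24 and 11.20 in wild type arrays. The values were interleaved (0.055, adjusted p = 0.831).

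Some of the paralogs are known from other tissues. Rpl39l, expressed in male germ cells, was at 4.19, 5.33, 4.06, 3.84 and 4.33 in heterozygous arrays, against 4.23, 3.99, 7.60, 4.28 and 3.74 in wild type arrays. Wild type 3 stood 3.32 above the next wild type array and heterozygous 2 was the next highest of all arrays. The other 8 arrays lay below the dim-row cutoff of 4.52, and without wild type 3 the mean over arrays was 4.22, so Rpl39l was tested only because of that array. Its difference was -0.42 (SE 0.652, adjusted p = 0.785) with wild type 3 and 0.289 without it. Rpl3l, the form of Rpl3 in heart and skeletal muscle, was at 6.27, 6.54, 6.87, 6.67 and 6.63 in heterozygous arrays, against 7.23, 6.93, 5.86, 6.01 and 6.35 in wild type arrays. The wild type arrays spanned the whole range (0.12, adjusted p = 0.837), and without wild type 3 the difference was -0.032. Rpl10l, which replaces Rpl10 in meiotic male germ cells, was dim, from 4.78 to 5.24 in heterozygous arrays and from 4.56 to 5.33 in wild type arrays (0.20, adjusted p = 0.601).

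Single arrays differed across the whole family. Relative to each gene's mean over the 10 arrays, 44 of 54 core genes were low in heterozygous 2 and 47 of 54 in wild type 1. In heterozygous 1, 3, 4 and 5 the number below the mean was 19, 40, 15 and 18, and in wild type 2, 3, 4 and 5 it was 10, 19, 18 and 32. Some of these shifts were shared by the 53 other genes with a mean of 12 or more. Their median deviation was 0.060 in wild type 2 (core 0.058), 0.032 in heterozygous 4 (core 0.033) and -0.038 in heterozygous 3 (core -0.026). It was -0.0047 in heterozygous 2 (core -0.0549) and 0.0454 in wild type 1 (core -0.0953). In wild type 3 and 4 it was -0.068 and -0.061, against 0.022 and 0.020 for core genes. Wild type 1 held the lowest value of 26 core genes and heterozygous 2 that of 13. The median core gene was 0.0642 lower in heterozygous 2 than in the other heterozygous arrays, and 0.11 lower in wild type 1 than in the other wild type arrays, and 43 of 54 core genes were lower in both.

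These are the 2 arrays with the highest monocyte and macrophage marker means. Their neutrophil marker means were also the highest, at 7.44 in heterozygous 2 and 6.69 in wild type 1, against 5.13 to 6.10 in the others, as were their megakaryocyte means of 7.33 and 7.25. The plasmacytoid dendritic list was also highest in heterozygous 2, at 8.40. The other arrays did not follow this order. Wild type 2 had the next highest macrophage marker mean (7.564), and only 10 of 54 core genes were below their mean there. Heterozygous 3 had 40 of 54 below at a macrophage marker mean of 7.165. The part of other cells in the lower ribosomal protein values was not tested. Without heterozygous 2 and wild type 1 the median difference of the 63 members was -0.00275. In that fit again 0 members reached an unadjusted p under 0.05 in limma in either direction (16.1% of all genes did, 6.09% lower and the rest higher). When the macrophage marker mean entered the fit, the median difference was 0.0234, and 2 members reached an unadjusted p under 0.05, both higher, against 9.29% of all genes higher and 5.83% lower in that fit (15.1% in all).

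**Figure D4:**
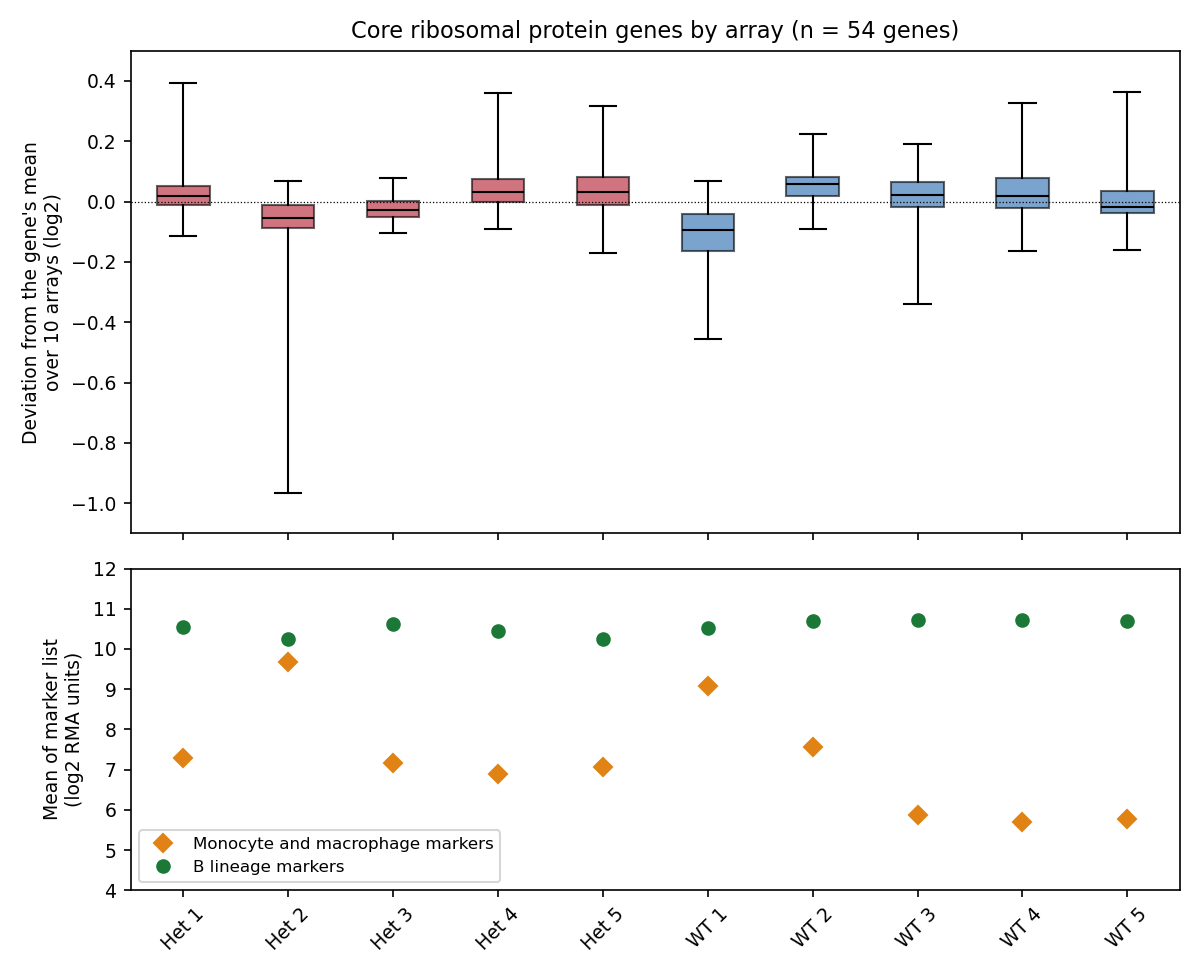
Upper panel: deviation of the 54 core genes from their own mean over the 10 arrays (y axis, log2), with boxes for quartiles, lines for medians and whiskers to the extremes, heterozygous in red and wild type in blue. Lower panel: mean of the monocyte and macrophage markers (orange) and of the B lineage markers (green) by array. The lowest medians, -0.0549 in heterozygous 2 and -0.0953 in wild type 1, fall on the arrays with the highest macrophage marker means.

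Genes that act with these proteins were read from lists of known roles. Fau, whose product is the small subunit protein fused to a ubiquitin-like domain, was at 0.091 (adjusted p = 0.670). Of 13 measured translation factors and other genes known for TOP mRNAs, 0 reached an unadjusted p under 0.05 in limma (11.0% of all genes), 4 were above 0 and 9 below, with a median of -0.067. In Tpt1, a growth-related TOP gene, the genotypes did not overlap: it was at 12.36, 12.36, 12.30, 12.22 and 12.11 in heterozygous arrays, against 12.42, 12.37, 12.42, 12.56 and 12.49 in wild type arrays. All heterozygous values lay below all wild type values (0.809% of all genes were so). The difference was -0.18 (SE 0.0858, limma adjusted p = 0.472, exact permutation p = 0.00794, the smallest possible). As for Rplp1, that permutation p adds nothing to the non-overlap. Tpt1 was named for its small p within this list. It has 4 probe sets, and only the one of highest mean was read here. Npm1, the nucleolar protein nucleophosmin, was at -0.39 (adjusted p = 0.574).

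Of 13 regulators of TOP mRNA translation, 1 (7.69%) reached an unadjusted p under 0.05 in limma, higher, against 11.0% of all genes (6.79% higher). The median of 0.073 was near the 0.058 over all genes. That gene was Mtor, the kinase itself, at 9.17, 9.06, 9.85, 9.57 and 9.40 in heterozygous arrays, against 9.11, 8.98, 8.57, 8.27 and 8.23 in wild type arrays. The groups overlapped through wild type 1, which lay above heterozygous 2. The difference was 0.78 (SE 0.208, limma adjusted p = 0.345, exact permutation p = 0.0159). With array weights it was 1.06 (adjusted p = 0.0312), in a fit where 137 of all genes passed the threshold. In the other 19 of 20 alternatives Mtor did not pass it. Rptor, the mTOR partner that recruits its substrates, was at 0.25 (adjusted p = 0.514), and Larp1, the TOP-binding protein, at -0.0065 (adjusted p = 0.994). Larp1 was chosen after its values were seen.

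Of 8 transcription factors linked to ribosomal protein genes 0 reached an unadjusted p under 0.05 in limma, with a median of -0.021. Over all genes 11.0% reached it and the median was 0.058, so in lists as short as those here a count of 0 says little. Gabpa, the DNA-binding part of GABP, was at -0.44 (adjusted p = 0.529) and Yy1 at -0.30 (adjusted p = 0.507). Of 12 chaperones and assembly factors 0 reached an unadjusted p under 0.05 in limma either (11.0% of all genes), with a median of 0.0090. Aamp, the mammalian relative of the yeast chaperone of Rpl10, was at 0.45 (adjusted p = 0.463). Eif6, which keeps the subunits apart, was at 0.33 (adjusted p = 0.518). Of 5 genes of the p53 axis 0 reached an unadjusted p under 0.05 in limma (11.0% of all genes), with a median of -0.14. Mdm2 was at -0.35 (adjusted p = 0.539) and Bop1, a factor of large subunit maturation, at 0.30 (adjusted p = 0.560).

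The 77 mitochondrial ribosomal protein genes, which serve the ribosome of the organelle where mortalin works, had a median difference of 0.10 with 58 above 0 and 19 below. Over all genes the median was 0.058, with 9167 above 0 and 5786 below. Of the 77, 2 (2.60%) reached an unadjusted p under 0.05 in limma, both higher, against 6.79% of all genes higher. Their median SD over arrays was 0.212, against 0.0786 for the 63 cytosolic members. The difference between both families was not tested.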

How the data were processed

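RNA of B220+ cells was amplified and hybridised to 1 array per mouse, 5 per genotype. Per the labels, the authors used RMA in Affymetrix Expression Console, and what they deposited is 1 log2 value per probe set and array. No version, genome build or annotation is named in the labels. Array medians ran from 5.38 to 5.49 over 35556 probe sets. Precision is limited by the number of arrays.

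The platform annotation gave 1 symbol for 21789 probe sets, several for 1621 and none for 12146. Each symbol kept 1 row, and rows whose mean did not exceed the 25th percentile (4.52) were dropped, leaving 14953 genes. The comparison of genotypes used lmFit and eBayes of limma 3.58.1 (R 4.3.3), with Benjamini-Hochberg adjustment over all genes and a threshold of 0.05. Exact permutation p-values are two-sided, come from all 252 splits of the arrays and are unadjusted unless stated. The script was tested on simulated data.

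The members and gene lists were chosen with earlier results of these data known. Named members were the 6 of smallest p per direction, the 3 of largest and of smallest SD, the paralogs, and a fixed list with known roles. Of each other list the 2 of smallest p were named. Alternatives were other filters, normalizations and variance models, weights per array, a replicate block, macrophage markers as covariate and each array left out. Exact permutation, each gene's own variance and leaving out both macrophage-high arrays were added after the data had been seen. Processed copies of ribosomal protein genes are common in the genome, and whether a probe set measures the gene or a copy was not tested. Of 39 members with several probe sets, 22 had the same sign in all and 17 had mixed signs. These probe sets share the same arrays and are not independent measurements. The labels number the replicates but do not say which arrays share a litter, batch or day, so the number was not taken to pair samples. Same-numbered arrays deviated together (r over 0.1) in 3 of 5 pairs, with r from -0.528 to 0.534 over the 5. In 0 pairs was the wild type array of the same number the best match. These values do not settle whether they were paired.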

Additional observations from a re-analysis of the deposited data

Results flagged for a closer look

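In 5 of 82 groups of 5 arrays over the 41 named genes, 1 array lay far from the others. Chance gives about 1 in 20 groups for genes chosen without regard to spread. The named genes include the 3 members of largest SD, Rpl39l, Rpl3l and Rpl12, so that rate does not hold for this list. In wild type arrays Rpl39l was at 7.60 in wild type 3, against 3.74 to 4.28 in the others, and Rps4l was at 5.15 in the same array, against 5.59 to 5.76. Rps4x was at 12.29 in wild type 1, against 12.45 to 12.50 in the other wild type arrays. Rplp0 was at 12.92 in wild type 5, against 12.82 to 12.85. In heterozygous arrays Rpl12 was at 6.03 in heterozygous 2, against 7.03 to 7.36. Rps4x in wild type 1 and Rpl12 in heterozygous 2 fall on the arrays with the highest macrophage marker means.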

How the results depend on the processing

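In all 20 alternatives fitted with limma, and with exact permutation or each gene's own variance, 0 ribosomal protein genes passed the adjusted threshold. Exact permutation could scarcely pass that threshold, since its p cannot lie below 0.00794. The number of all genes past it was 0, but 137 with array weights, 26 without both macrophage-high arrays and 0 to 22 with 1 array left out (22 without wild type 1, 3 without heterozygous 2). Members at an unadjusted p under 0.05 and higher were 0, but 1 with trended and robust variance, 2 with macrophage markers as covariate, 2 with exact permutation, 2 with each gene's own variance and 0 to 1 with 1 array left out. Lower ones were 0, but 3 with exact permutation and 3 with each gene's own variance. Of all genes 9.29% were higher with the covariate. With exact permutation 7.63% of all genes were higher and 3.42% lower, against 3.17% and 4.76% of members. With each gene's own variance 11.2% of all genes were called in either direction. The share by direction was not counted for each gene's own variance. The share of all genes was not counted for trended variance or with 1 array left out. Those counts of members therefore have no background to be read against. The median difference of the members was -0.0538 with cyclic loess, against 0.0104 for all genes there, and -0.0175 to 0.0224 with 1 array left out. Hspa9 was at -0.79 with array weights (adjusted p = 0.0381), and from -0.838 to -0.62 with 1 array left out.

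Of 28 named members 16 kept their direction in every alternative fitted, and 12 did not. Signs turned with the macrophage covariate for Rpl3l (-0.0559), Rpl12 (0.0218), Rpl5 (0.07), Rps4x (0.0152), Rpsa (0.026) and Rpl36a (0.00296). With cyclic loess they turned for Rpl10 (-0.0424) and Rps14 (-0.0195), with array weights for Rps28 (0.00384) and Rps27l (-0.0317), with quantile normalization for Rps28 (0.0102), and without both macrophage-high arrays for Rplp0 (0.0017) and Rpsa (0.0075). With 1 array left out, Rpl39l ran from -0.676 to 0.289, Rpl3l from -0.032 to 0.31, Rpl12 from -0.291 to 0.0406, Rps28 from -0.015 to 0.012, Rpl5 from -0.0861 to 0.0359, Rps4x from -0.0699 to 0.00276, Rplp0 from -0.0311 to 0.00204 and Rpsa from -0.0198 to 0.0282. The cause was not tested. The replicate block, with numbers that 5 arrays share across genotypes, left the median at 0.00068 and called 0 genes. All 5 pairs correlated from -0.528 to 0.534, and 0 heterozygous arrays correlated best with the wild type array of their own number. Signal over background was not in the values used here.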
